A study of Mus musculus with 8 samples.

Results

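The antioxidant enzymes described here are the products of 10 genes chosen by function, *Sod1*, *Sod2*, *Sod3*, *Cat*, *Gpx1*, *Gpx3*, *Gpx4*, *Prdx1*, *Nqo1* and *Hmox1*, out of the 31053 genes that were counted. They comprise the superoxide dismutases, catalase, glutathione peroxidases, a peroxiredoxin and a pair of classical targets of the transcription factor NRF2. The rule that lists them uses no measured value, but the choice was made with earlier results of these data known. All 10 had enough counts to be tested. *Gpx3* mRNA was 3.75-fold more abundant in SCA1-High-FAPs, *Nqo1* mRNA was 4.26-fold more abundant in SCA1-Low-FAPs, and the other members did not pass the test in either direction.

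Superoxide, released by mitochondria and oxidases, is converted to hydrogen peroxide by the superoxide dismutases, and hydrogen peroxide is then removed by catalase, by glutathione peroxidases and by peroxiredoxins. NRF2, held back by KEAP1 in resting cells, is freed by oxidants and electrophiles and binds antioxidant response elements in front of genes such as *Nqo1*, *Hmox1* and those of glutathione synthesis. In dystrophic muscle, where fibres that lack dystrophin are repeatedly damaged and repaired, oxidative stress is a long recognised feature.

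Fibro/adipogenic progenitors (FAPs) are mesenchymal cells of the muscle interstitium that can become adipocytes or fibroblasts. They came from the hind limb muscles of 4 *mdx* mice, which lack dystrophin, of the strain C57BL/10ScSn-Dmdmdx/J at 45 days of age. Both cell states came from these mice, but which samples share a mouse is not given in the sources used here. After depletion of CD45+ and CD31+ cells on magnetic columns, ITGA7- SCA-1+ cells were sorted by the intensity of surface SCA-1 into SCA1-High-FAPs (4 samples) and their counterpart, SCA1-Low-FAPs (4 samples). Both cell states were then kept for 5 days in growth medium (GM) with serum and no differentiation stimulus, and 3′ mRNA libraries were made from their total RNA. All samples therefore share the *mdx* background, the age and the medium, no wild type sample was analysed here, and the comparison is one of cultured cells 5 days after the sort.

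Between 1880561 and 3985656 reads per sample were assigned to genes, so that 3 counts corresponded to 0.753 to 1.6 CPM (counts scaled to a common library size) before further scaling. All CPM values below are also scaled by TMM, a normalisation for library composition. Reads that aligned to several positions were assigned to no gene by the authors. Their summary entry was 37.5% to 39.7% of the total over all entries in SCA1-High-FAPs and 40.8% to 43.3% in SCA1-Low-FAPs. Whether a read entered it once or once per position is not given in the sources used here. *Ly6a*, which encodes SCA-1 itself, went against the direction of the sort at the mRNA level. Its mRNA lay between 492 and 919 CPM in the 4 SCA1-High-FAPs and between 1014 and 1156 CPM in the 4 SCA1-Low-FAPs, a log2 ratio of 0.61 (adjusted p = 0.0341, edgeR). That call was lost in 7 of the 8 fits that each left out 1 sample, where the adjusted p was 0.0513 to 0.0947, and held without replicate 4 of SCA1-High-FAPs (adjusted p = 0.0124, edgeR). The cell states are named below as labelled, by surface protein at the sort. *Adgre1*, *Itgam*, *Pax7*, *Myf5*, *Myod1*, *Myog* and *Emcn*, which mark macrophages, satellite and muscle cells and endothelium, had 0 counts in every sample. Other markers of the same cell types were counted, *Lyz2* (389 counts over the 8 samples), *Csf1r* (90), *Cd14* (61), *Tek* (53), *Itga7* (44) and *Cd68* (33) with the most. The mesenchymal marker *Pdgfra* averaged 223 CPM in SCA1-High-FAPs against 168 CPM in SCA1-Low-FAPs. Replicate 3 of SCA1-Low-FAPs stood apart from its group, being nearest to the mean of SCA1-High-FAPs for 11 of the 14 antioxidant genes called below. Values without it are therefore given beside the results that rest on it.

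A gene was called differentially expressed at an adjusted p under 0.05 together with a log2 ratio of SCA1-Low-FAPs to SCA1-High-FAPs above 0.5 or below −0.5. By edgeR, 2 of the 10 members were called (20.0%), against 7.68% of the 10181 genes tested. The member higher in SCA1-High-FAPs compares with 4.36% of all tested genes called in that direction, and the member higher in SCA1-Low-FAPs with 3.32%. The ranges of the cell states did not overlap for the same 2 members, *Gpx3* and *Nqo1*, against 14.1% of all tested genes, and 5 members had an unadjusted p under 0.05, against 21.3%. Over the members the median log2 ratio was −0.10 and over all tested genes 0.00, with 6 members below 0 and 4 above. The antioxidant enzymes thus did not shift together towards either cell state. In these bulk samples, fewer cells that express a gene and less RNA per cell cannot be told apart. Because each transcript yields reads near its 3′ end, the CPM values of different genes are not compared with each other.

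**Figure D1:**
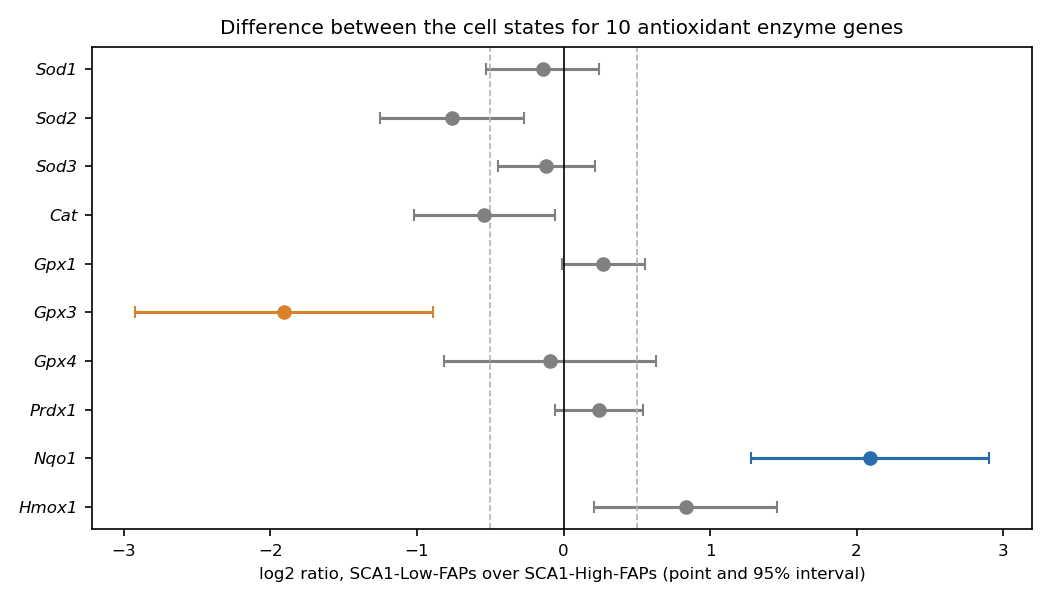
Log2 ratio of SCA1-Low-FAPs to SCA1-High-FAPs for the 10 antioxidant enzyme genes, with points for the edgeR estimate and bars for its 95% interval; dashed lines mark 0.5 in either direction, and orange and blue mark genes called in favour of SCA1-High-FAPs or SCA1-Low-FAPs. *Gpx3* at −1.91 and *Nqo1* at 2.09 lie farthest from 0, and the intervals of *Sod2*, *Cat* and *Hmox1* also stay on one side of 0 although these genes were not called.

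*Sod1* encodes the cytosolic copper and zinc superoxide dismutase and lies on chromosome 16 of GRCm38 from 90220754 to 90226329. In SCA1-High-FAPs its mRNA was at 748, 830.05, 1068 and 707 CPM in replicates 1 to 4, and in SCA1-Low-FAPs at 832, 584, 622 and 997 CPM. The cell states overlapped over most of their range. The means of 838 ± 162 and 759 ± 192 CPM (SD, n = 4 each) gave a log2 ratio of −0.14 (SE 0.18, adjusted p = 0.723, edgeR), and the 95% interval of the ratio of SCA1-Low-FAPs to SCA1-High-FAPs ran from 0.694 to 1.18. *Scaf4* overlaps *Sod1* on the opposite strand, but held 944 counts over the 8 samples in all, fewer than the 1073 that *Sod1* held in its poorest sample.

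*Sod2* encodes the manganese superoxide dismutase of the mitochondrial matrix and lies on chromosome 17 from 13006846 to 13040063. In SCA1-High-FAPs its mRNA was at 129, 92.7, 142 and 94.98 CPM, and in SCA1-Low-FAPs at 43.0, 68.1, 100.2 and 58.1 CPM. Only replicate 3 of SCA1-Low-FAPs reached the range of SCA1-High-FAPs, where it exceeded replicates 2 and 4. The means were 115 ± 24.5 and 67.3 ± 24.2 CPM (SD, n = 4 each). The log2 ratio of −0.76 (SE 0.23) corresponded to a ratio of 0.590 with a 95% interval of 0.420 to 0.831, and it missed the threshold by edgeR (adjusted p = 0.0552). It passed by DESeq2 (adjusted p = 0.0393), when no filter on low counts was used (adjusted p = 0.00917, edgeR), and when at least 10 counts were asked of every sample (adjusted p = 0.0433, edgeR). Without replicate 3 of SCA1-Low-FAPs the log2 ratio was −1.03 (adjusted p = 0.00635, edgeR), and without any other sample it lay at −0.84 or nearer to 0 and was not called. *Sod2* thus lay at the edge of the threshold, with more mRNA in SCA1-High-FAPs in all 15 fits.

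*Sod3* encodes the secreted superoxide dismutase of the extracellular matrix and lies on chromosome 5 from 52363791 to 52371418. *Sod3* transcripts stood at 296, 390.2, 429 and 368 CPM in SCA1-High-FAPs and at 278, 360.5, 402 and 328 CPM in SCA1-Low-FAPs. The ranges nearly coincided, with means of 371 ± 55.7 and 342 ± 52.3 CPM (SD, n = 4 each). With a log2 ratio of −0.12 (SE 0.16, adjusted p = 0.739, edgeR), the 95% interval of the ratio, 0.734 to 1.16, leaves room for a moderate difference in either direction.

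*Cat* encodes catalase, the peroxisomal enzyme that splits hydrogen peroxide into water and oxygen, and lies on chromosome 2 from 103453849 to 103485160 on the minus strand. *Cat* transcripts stood at 108, 71.9, 97.7 and 56.5 CPM in SCA1-High-FAPs and at 51.7, 75.7, 44.1 and 58.6 CPM in SCA1-Low-FAPs. Replicates 1 and 3 of SCA1-High-FAPs were above all SCA1-Low-FAPs, whereas replicates 2 and 4 fell within their range. The difference, a log2 ratio of −0.54 (SE 0.23), did not pass after adjustment (adjusted p = 0.173, edgeR), although the 95% interval of the ratio, 0.493 to 0.960, did not reach 1. It did not pass in any other fit either.

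**Figure D2:**
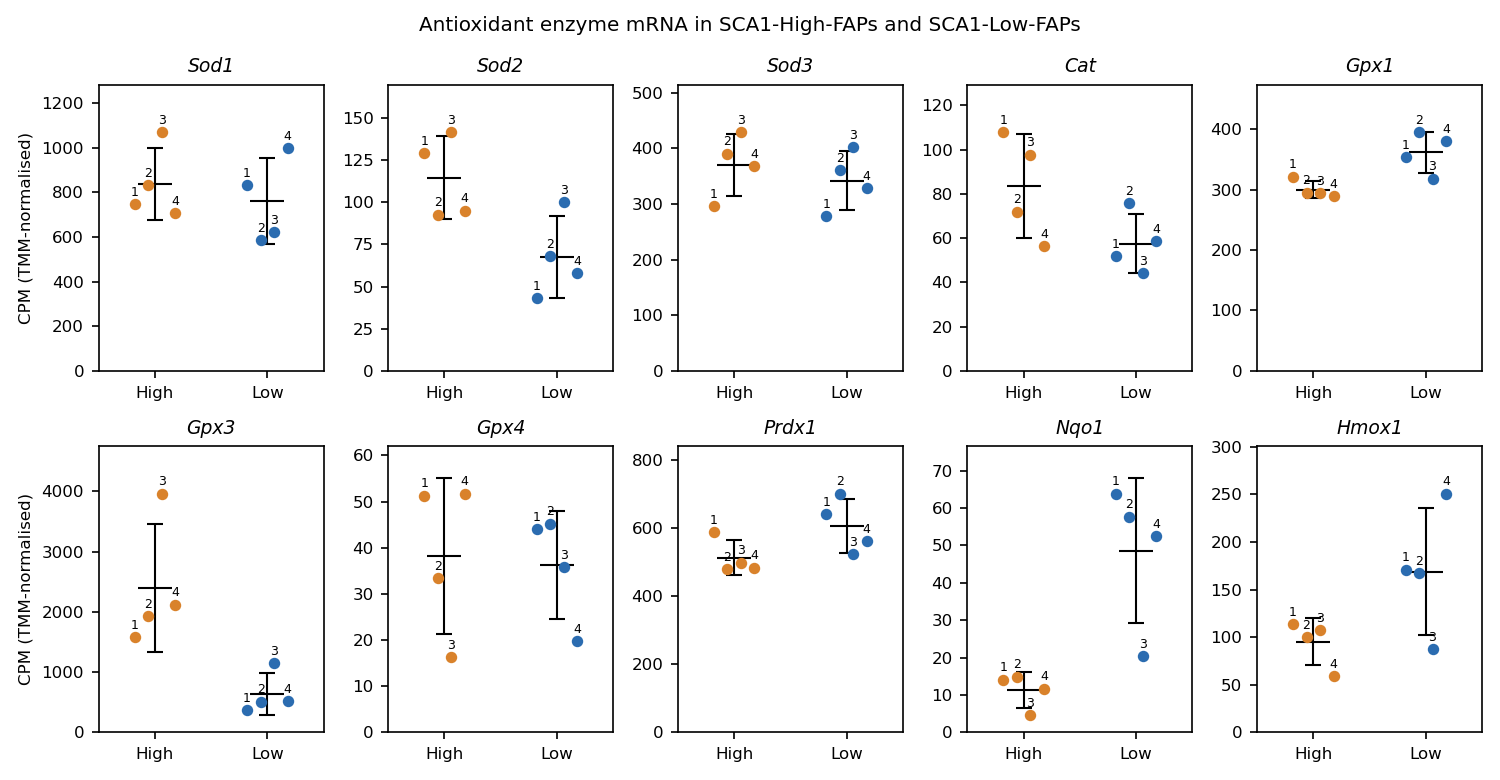
TMM-normalised CPM of each antioxidant enzyme gene in the 4 SCA1-High-FAPs (orange) and 4 SCA1-Low-FAPs (blue), with replicate numbers beside the points, horizontal lines for the means and bars for the SD; every panel has its own axis, which starts at 0. *Gpx3* in SCA1-High-FAPs (1579 to 3961 CPM) and *Nqo1* in SCA1-Low-FAPs (20.3 to 63.8 CPM) lie wholly above the other cell state, and the remaining 8 genes overlap.

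Among the glutathione peroxidases, the secreted plasma enzyme differed between the cell states, whereas the cytosolic and the phospholipid enzymes did not pass. *Gpx3* encodes that secreted selenoenzyme, which is abundant in plasma, kidney and adipose tissue, and it lies on chromosome 11 from 54902453 to 54910377. Its mRNA was at 1579, 1928, 3961 and 2121 CPM in SCA1-High-FAPs and at 369, 509, 1154 and 524 CPM in SCA1-Low-FAPs. Every SCA1-High-FAPs sample was above every SCA1-Low-FAPs sample, and replicate 3 was the highest of its group in both cell states. The means of 2397 ± 1067 and 639 ± 350.2 CPM (SD, n = 4 each) gave a log2 ratio of −1.91 (SE 0.44, adjusted p = 0.0402, edgeR), or 0.00123 by DESeq2. The call was close to its threshold, since it was lost when no low-count filter was used (adjusted p = 0.0851, edgeR) and when any single sample other than replicate 3 of SCA1-Low-FAPs was left out (adjusted p = 0.0507 to 0.151, edgeR). Without that replicate the log2 ratio was −2.37 (adjusted p = 0.000617, edgeR), and over all fits that left out 1 sample it stayed between −2.37 and −1.55. With the replicate number as a block the log2 ratio was −1.95 by both methods (adjusted p = 4.5e-05, edgeR, and 8.61e-36, DESeq2), although equal numbers were not taken as pairs. *Gpx3* thus kept its direction and most of its size throughout, and the adjusted p moved.

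*Gpx1* encodes the cytosolic and mitochondrial glutathione peroxidase and lies on chromosome 9 from 108338903 to 108340343. Its mRNA was the steadiest of the members, at 321, 295, 293.5 and 289 CPM in SCA1-High-FAPs and at 353, 395, 318 and 379.6 CPM in SCA1-Low-FAPs. Only replicate 1 of SCA1-High-FAPs and replicate 3 of SCA1-Low-FAPs made the ranges overlap. The coefficient of variation was 4.83% in SCA1-High-FAPs, against 9.33% in the SCA1-Low-FAPs. Its log2 ratio of 0.27 (SE 0.13) did not pass (adjusted p = 0.263, edgeR), and the 95% interval of the ratio ran from 0.991 to 1.47.

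*Gpx4* encodes the peroxidase of membrane phospholipid hydroperoxides, whose loss leads to ferroptosis, and lies on chromosome 10 from 80047166 to 80056439. *Gpx4* stood at 51.3, 33.5, 16.3 and 51.7 CPM in SCA1-High-FAPs and at 44.0, 45.2, 35.8 and 19.8 CPM in SCA1-Low-FAPs. The cell states overlapped fully, and 39 to 141 reads per sample were counted. The log2 ratio of −0.09 (SE 0.34, adjusted p = 0.919, edgeR) was positive in 3 of the 15 fits, and the 95% interval of the ratio ran from 0.569 to 1.55. A processed pseudogene, *Gpx4-ps2*, is 99.7% identical to the last 300 bases of all 3 coding transcripts of *Gpx4*, so that reads from this gene could align to both positions and be left out of the counts.

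*Prdx1* encodes peroxiredoxin 1, an abundant cytosolic thiol peroxidase that is recycled by thioredoxin and is also a known target of NRF2, and it lies on chromosome 4 from 116685544 to 116700822. Its mRNA was at 589, 481, 499 and 484 CPM in SCA1-High-FAPs and at 642, 702, 524 and 562 CPM in SCA1-Low-FAPs. Replicate 1 of SCA1-High-FAPs was above replicates 3 and 4 of SCA1-Low-FAPs, and the other values were separated. At 0.24 (SE 0.14), the log2 ratio did not pass (adjusted p = 0.357, edgeR), with a 95% interval of the ratio from 0.961 to 1.46. Processed pseudogenes match the 3′ ends of *Prdx1* (*Gm7204* and *Gm21399*) and of *Sod1* (*Gm8566*) at 97.8% identity or more, and 1 of the 2 coding transcripts of *Sod2* ends in a stretch shared with 10 other genes, so the levels of these genes may also be understated. Among annotated transcripts no such copy was found for *Sod3*, *Cat*, *Gpx1*, *Gpx3*, *Nqo1* or *Hmox1*, and the rest of the genome was not searched.

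*Nqo1* and *Hmox1*, the members chosen as NRF2 targets, were both more abundant on average in SCA1-Low-FAPs, and *Nqo1* passed. *Nqo1* encodes NAD(P)H quinone dehydrogenase 1, which reduces quinones without forming semiquinone radicals, and lies on chromosome 8 from 107388225 to 107403206 on the minus strand. Its mRNA was at 14.1, 14.9, 4.59 and 11.7 CPM in SCA1-High-FAPs, from 30, 33, 11 and 32 counts. In SCA1-Low-FAPs it was at 63.8, 57.7, 20.3 and 52.5 CPM, from 132, 106, 64 and 199 counts. All SCA1-Low-FAPs were above all SCA1-High-FAPs, and replicate 3 was the lowest of its group in both cell states. The means of 11.3 ± 4.70 and 48.6 ± 19.4 CPM (SD, n = 4 each) gave a log2 ratio of 2.09 (SE 0.38, adjusted p = 0.00325, edgeR), a ratio of 4.26 with a 95% interval of 2.43 to 7.50. *Nqo1* was the only member called in all 8 fits that each left out 1 sample, with log2 ratios of 1.83 to 2.34 and adjusted p from 0.000238 to 0.0174 (edgeR).

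*Hmox1* encodes haem oxygenase 1, which opens the haem ring to biliverdin, iron and carbon monoxide, and lies on chromosome 8 from 75093621 to 75100589. *Hmox1* stood at 114, 99.9, 108 and 59.0 CPM in SCA1-High-FAPs and at 171, 167, 87.2 and 251 CPM in SCA1-Low-FAPs. Replicates 1, 2 and 4 of SCA1-Low-FAPs were above all SCA1-High-FAPs, and replicate 3 lay within their range. The means were 95.2 ± 24.7 and 169 ± 66.8 CPM (SD, n = 4 each). The log2 ratio of 0.83 (SE 0.29), a ratio of 1.78 with a 95% interval of 1.16 to 2.74, did not pass by edgeR (adjusted p = 0.105) and passed by DESeq2 (adjusted p = 0.0394). Without replicate 3 of SCA1-Low-FAPs it was 1.04 (adjusted p = 0.00588, edgeR).

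**Figure D3:**
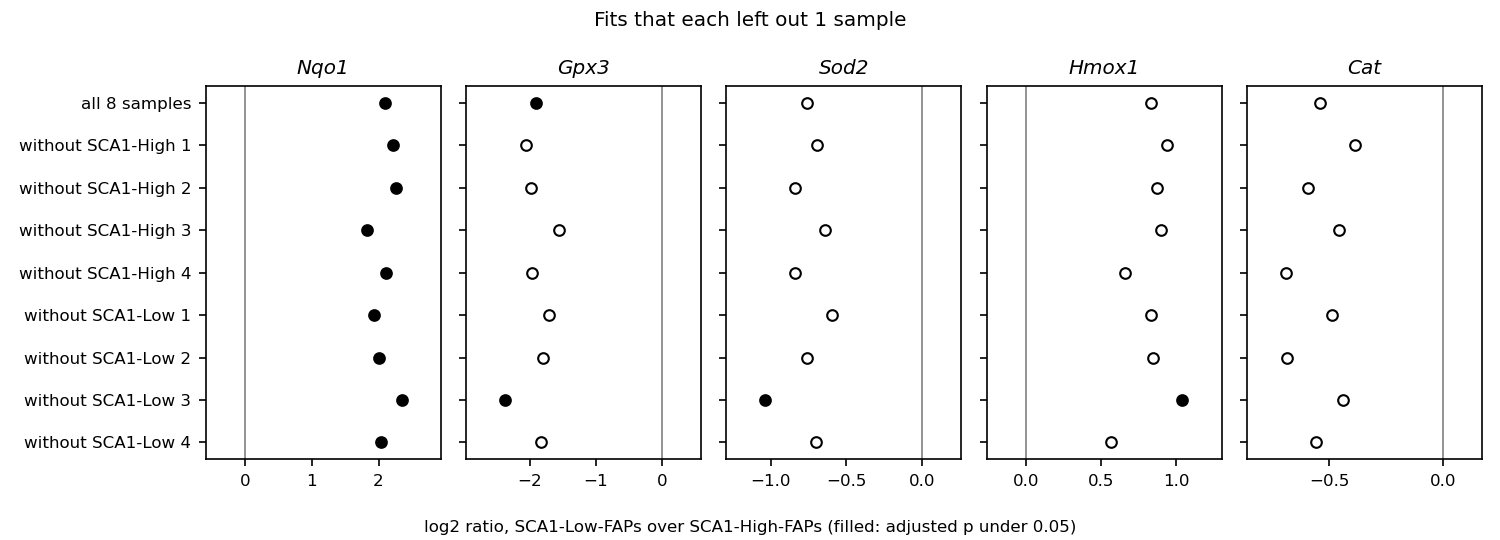
Log2 ratio of SCA1-Low-FAPs to SCA1-High-FAPs for the 5 members with an unadjusted p under 0.05, with all 8 samples and with each sample left out in turn; filled points have an adjusted p under 0.05 by edgeR and the vertical line marks 0. *Nqo1* passed in every fit, *Gpx3* passed with all samples and without replicate 3 of SCA1-Low-FAPs, *Sod2* and *Hmox1* passed only without that replicate, and *Cat* passed in none.

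Within SCA1-High-FAPs, replicates 1 and 3 each held the highest value for 4 members and the lowest for 2. Those of replicate 3 were *Sod1*, *Sod2*, *Sod3* and *Gpx3* at the top and *Gpx4* and *Nqo1* at the bottom. Within SCA1-Low-FAPs, replicate 3 had the most *Sod2*, *Sod3* and *Gpx3* and the least *Cat*, *Gpx1*, *Prdx1*, *Nqo1* and *Hmox1*. Without replicate 3 of SCA1-Low-FAPs, 4 members were called, *Gpx3* and *Sod2* higher in SCA1-High-FAPs and *Nqo1* and *Hmox1* higher in SCA1-Low-FAPs. Calls over all genes also rose in that fit, to 1017 of 10330 tested from 782 of 10181 with all samples. That replicate was singled out by called genes of these same data, so the added calls are no independent support. Without any other single sample, *Nqo1* was the 1 member called, with 410 to 682 calls over all genes.

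The rest of the antioxidant pathway was read from 8 lists by function, chosen with earlier results of these data known. The shares below are therefore not independent of these data. The lists hold 90 genes in all, of which 81 could be tested. Of these, 12 were called (14.8%, against 7.68% of all tested genes), 8 with more mRNA in SCA1-Low-FAPs and 4 with more in SCA1-High-FAPs. Over all tested genes, 3.32% were called in SCA1-Low-FAPs and 4.36% in SCA1-High-FAPs. Their log2 ratios had a median of 0.12, against 0.00 over all tested genes. In 13 genes the cell states did not overlap (16%, against 14.1%), and 23 had an unadjusted p under 0.05 (28.4%, against 21.3%). Leaving out replicates 1 to 4 of SCA1-High-FAPs in turn gave 9, 6, 7 and 6 called genes in place of 12, of which 6, 2, 4 and 3 were higher in SCA1-Low-FAPs. Leaving out those of SCA1-Low-FAPs gave 3, 6, 16 and 5, of which 1, 4, 12 and 2 were higher there. Calls over all genes moved in the same fits, from 782 with all samples. They were 630, 675, 563 and 682 without replicates 1 to 4 of SCA1-High-FAPs. Without those of SCA1-Low-FAPs they were 417, 538, 1017 and 410. The balance of 8 to 4 thus depended on which samples were included, and it fell to 2 against 4 without replicate 2 of SCA1-High-FAPs. Over all genes that fit called 290 higher in SCA1-Low-FAPs against 385 higher in SCA1-High-FAPs. Among the superoxide and peroxide enzymes 2 of 8 were called, in the glutathione system 3 of 17, in the thioredoxin system 1 of 14, among NRF2 and its regulators 1 of 10, among other NRF2 targets 4 of 12 and in the selenoprotein list 1 of 9. None of 8 genes of haem and iron handling and none of 3 oxidant sources was called by edgeR, and 1 gene in each had an unadjusted p under 0.05. *Ftl1*, which encodes ferritin light chain, had a log2 ratio of 0.74 and passed by DESeq2 (adjusted p = 0.0292) but not by edgeR (adjusted p = 0.109). *Cyba*, which encodes the p22phox subunit of NADPH oxidases, had one of 0.97 and passed by neither (adjusted p = 0.0684 by edgeR and 0.0547 by DESeq2).

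**Figure D4:**
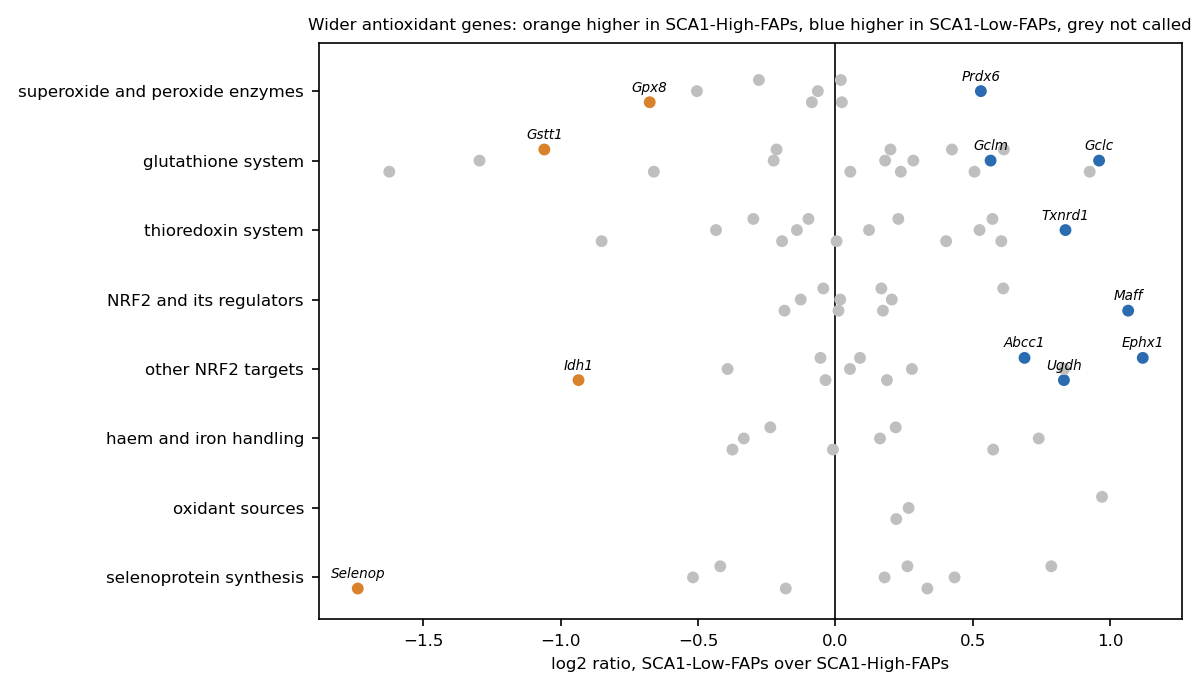
Log2 ratio of SCA1-Low-FAPs to SCA1-High-FAPs for the 81 tested genes of the wider antioxidant lists, 1 row of points per list; orange points were called higher in SCA1-High-FAPs, blue points higher in SCA1-Low-FAPs, and grey points were not called. The blue points come from 5 lists and reach 1.12 (*Ephx1*), and the orange point farthest from 0 is *Selenop* at −1.74.

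Glutathione synthesis was represented by both subunits of glutamate-cysteine ligase, the enzyme of its first step. The catalytic subunit *Gclc* was at 32.0, 21.7, 23.4 and 25.3 CPM in SCA1-High-FAPs and at 64.3, 54.5, 34.6 and 46.7 CPM in SCA1-Low-FAPs. No sample of either cell state crossed into the other, and the log2 ratio was 0.96 (adjusted p = 0.0243, edgeR). The modifier subunit *Gclm* was at 214, 208, 284 and 213 CPM in SCA1-High-FAPs and at 360.1, 303, 276 and 419.75 CPM in SCA1-Low-FAPs. Here the third replicates overlapped, at a log2 ratio of 0.56 (adjusted p = 0.0423, edgeR). *Gclc* and *Gclm* were each called in only 2 of the 8 fits that left out 1 sample. *Gstt1*, which encodes a theta-class glutathione transferase, went the other way at 106 ± 26.2 and 50.6 ± 11.9 CPM (SD, n = 4 each) in the high and the low state, a log2 ratio of −1.06 (adjusted p = 0.00542, edgeR), and was called in all 8 of those fits.

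*Txnrd1*, which encodes cytosolic thioredoxin reductase and so the electron supply of *Prdx1*, was the 1 gene called in the thioredoxin system. It was at 97.5, 82.3, 117 and 77.7 CPM in SCA1-High-FAPs and at 202, 132, 103 and 231 CPM in SCA1-Low-FAPs, with replicate 3 of SCA1-Low-FAPs inside the range of SCA1-High-FAPs. Its log2 ratio was 0.84 (adjusted p = 0.0352, edgeR), with a call in 3 of the 8 fits that left out 1 sample. Among the other peroxidases, *Prdx6*, a peroxiredoxin that uses glutathione, was higher in SCA1-Low-FAPs by 0.53 (adjusted p = 0.0449, edgeR), called in 1 of the 8 fits. *Gpx8*, a peroxidase of the endoplasmic reticulum, was higher in SCA1-High-FAPs, at −0.68 (adjusted p = 0.0207, edgeR), and was called in 5 of the 8.

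The mRNA of NRF2 itself did not differ detectably. *Nfe2l2*, which encodes NRF2, was at 211, 222, 286 and 201 CPM in SCA1-High-FAPs and at 259.6, 172, 212 and 249.5 CPM in SCA1-Low-FAPs. The ratio of 0.970 had a 95% interval of 0.761 to 1.24 (adjusted p = 0.921, edgeR). *Keap1*, which encodes its inhibitor, had a log2 ratio of 0.17 (adjusted p = 0.626, edgeR) and *Bach1*, which encodes a haem-regulated repressor of *Hmox1*, one of −0.19 (adjusted p = 0.743, edgeR). These are mRNA levels, and NRF2 is known to be controlled mainly through the stability of its protein, which was not measured here. *Maff*, which encodes a small MAF partner of NRF2, was at 20.7, 11.3, 13.8 and 16.1 CPM in SCA1-High-FAPs and at 39.2, 26.1, 30.8 and 33.5 CPM in SCA1-Low-FAPs, without overlap and with a log2 ratio of 1.07 (adjusted p = 0.0251, edgeR), called in 4 of the 8 fits that left out 1 sample.

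Among the other targets of NRF2, *Ephx1* changed most. It encodes microsomal epoxide hydrolase and was at 64.0, 59.7, 45.5 and 87.6 CPM in SCA1-High-FAPs and at 163, 138, 108 and 149.7 CPM in SCA1-Low-FAPs. No values overlapped, and the log2 ratio of 1.12 (adjusted p = 0.00273, edgeR) was called in all 8 fits that left out 1 sample. *Abcc1*, which encodes an exporter of glutathione conjugates, was higher in SCA1-Low-FAPs by 0.69 (adjusted p = 0.0135, edgeR) and *Ugdh*, which makes UDP-glucuronate for conjugation, by 0.83 (adjusted p = 0.0375, edgeR), called in 6 and 3 of the 8 fits. *Idh1*, a cytosolic source of NADPH, went the other way at −0.93 (adjusted p = 0.0262, edgeR), called in 3 of the 8. *Nqo1* thus had company among genes of its pathway in SCA1-Low-FAPs, but 8 of the 12 other targets tested were not called.

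*Selenop*, the 1 gene called in the selenoprotein list, encodes the secreted selenoprotein P, a selenium carrier rather than a factor of selenoprotein synthesis. Its mRNA was at 359, 201, 222 and 187 CPM in SCA1-High-FAPs and at 69.1, 74.6, 91.7 and 54.9 CPM in SCA1-Low-FAPs, with no overlap. The log2 ratio of −1.74 (adjusted p = 0.000394, edgeR) was called in all 8 fits that left out 1 sample. *Selenop* and *Gpx3*, both secreted selenoproteins, were thus both higher in SCA1-High-FAPs.

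The sequences in front of the genes were searched for the letters of the antioxidant response element core, TGACNNNGC on either strand, because NRF2 targets were among the genes that differed. The windows were those of RefSeq on GRCm38.p6, from 250 bases before to 50 after the start of a transcript, and 12.4% of all 32851 windows held the core. A window was at hand for 8 of the 10 members (not *Sod3* and *Hmox1*), and those of *Sod1* (TGACCACGC on the minus strand of the window, 56 bases before the start) and *Prdx1* held the core. In *Prdx1* the core, TGACTCAGC on the minus strand, overlaps the AP-1 letters TGAGTCA, and TGACTCA occurs once more farther upstream. The AP-1 letters TGACTCA or TGAGTCA were in 5.2% of all windows. Neither the *Nqo1* nor the *Gpx3* window held the core or the AP-1 letters. Of the called antioxidant genes, members included, 6 of the 9 higher in SCA1-Low-FAPs had a window, and *Gclm*, *Txnrd1*, *Maff* and *Ugdh* held the core, whereas none of the 5 higher in SCA1-High-FAPs did. *Txnrd1* and *Maff* have 3 windows each, with the core in 1 of them, so that these counts per gene are not on the scale of the share per window. These letters describe the windows only, and their absence from a window says nothing of a factor bound elsewhere. The 250 bases before the start are shown for the members that were called, for *Prdx1* and for *Gclm*, 5′ to 3′ along the gene, with the core and the AP-1 letters in capitals. They cover chr8:107403206-107403455 (minus strand) for *Nqo1*, chr11:54902604-54902853 (plus strand) for *Gpx3*, chr4:116685349-116685598 (plus strand) for *Prdx1* and chr3:122245307-122245556 (plus strand) for *Gclm*.
*Nqo1*: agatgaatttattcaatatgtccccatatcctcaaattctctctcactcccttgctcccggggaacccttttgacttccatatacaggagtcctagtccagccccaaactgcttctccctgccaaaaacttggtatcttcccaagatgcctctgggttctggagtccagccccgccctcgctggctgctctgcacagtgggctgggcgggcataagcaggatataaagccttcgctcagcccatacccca
*Gpx3*: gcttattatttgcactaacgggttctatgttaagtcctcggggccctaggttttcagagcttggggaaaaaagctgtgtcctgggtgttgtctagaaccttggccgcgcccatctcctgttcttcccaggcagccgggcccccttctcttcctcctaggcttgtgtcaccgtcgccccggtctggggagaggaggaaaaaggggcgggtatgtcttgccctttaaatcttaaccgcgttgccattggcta
*Prdx1*: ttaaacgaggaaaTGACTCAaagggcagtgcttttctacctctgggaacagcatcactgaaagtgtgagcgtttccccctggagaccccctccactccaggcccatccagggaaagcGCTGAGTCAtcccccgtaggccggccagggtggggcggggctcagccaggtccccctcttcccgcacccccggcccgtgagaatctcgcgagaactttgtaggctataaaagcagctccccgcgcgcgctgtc
*Gclm*: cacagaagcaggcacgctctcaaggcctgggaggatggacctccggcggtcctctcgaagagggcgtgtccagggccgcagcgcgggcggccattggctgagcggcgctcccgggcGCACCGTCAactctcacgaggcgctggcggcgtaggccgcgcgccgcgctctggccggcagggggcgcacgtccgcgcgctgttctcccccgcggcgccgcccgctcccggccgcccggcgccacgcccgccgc

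Markers of adipocytes and division moved with the cell states, whereas single leucocyte markers went in both directions. The sums of endothelial and of satellite and muscle cell markers overlapped between the cell states. The summed CPM of 6 adipocyte markers was 11142, 4655, 6778 and 2951 in SCA1-High-FAPs, compared with 757, 1079.7, 1439 and 507 in SCA1-Low-FAPs. Of the 5 that could be tested, *Adipoq* and *Lpl* were called, both in SCA1-High-FAPs. *Plin1*, *Fabp4* and *Cfd* were not called by edgeR (adjusted p = 0.0534 to 0.101), at log2 ratios of −2.45, −2.77 and −5.46. They too were higher in SCA1-High-FAPs without overlap, and passed by DESeq2 (adjusted p at most 0.0036). All 7 mitosis markers were called in SCA1-Low-FAPs, with sums of 544 to 785 CPM in SCA1-High-FAPs against 1093 to 1611 CPM in SCA1-Low-FAPs. The 7 leucocyte markers summed to 26.7 to 48.4 CPM in SCA1-High-FAPs against 17.97 to 24.1 CPM in SCA1-Low-FAPs. *Lyz2*, the 1 tested, was called in SCA1-High-FAPs (log2 ratio −1.42). *Cd68* was also higher there, with means of 2.88 against 0.477 CPM and no overlap. *Cd14* went the other way without overlap, at 1.58 CPM in SCA1-High-FAPs against 4.38 CPM in SCA1-Low-FAPs. *Csf1r* averaged 3.32 against 5.48 CPM, with overlap. The 5 endothelial markers stayed at or under 7.39 CPM in sum, and the 6 of satellite and muscle cells at or under 12.5 CPM. The 4 markers of pericytes and smooth muscle summed to 9.49 to 23.0 CPM in SCA1-High-FAPs against 16.9 to 41.9 CPM in SCA1-Low-FAPs. *Myh11*, the 1 of them tested, was called in SCA1-Low-FAPs (log2 ratio 1.85). The others overlapped and did not share its direction. *Abcc9* and *Rgs5* averaged 5.72 and 3.28 CPM in SCA1-High-FAPs against 0.861 and 1.91 CPM in SCA1-Low-FAPs. *Kcnj8* averaged 0.367 CPM in SCA1-High-FAPs against 0.725 CPM in SCA1-Low-FAPs, with 0 counts in most samples. The 8 FAP markers summed to 13201 to 16141 CPM and 8510 to 14220 CPM, with *Dcn* and *Col3a1* called in SCA1-High-FAPs and *Thy1* and *Ly6a* in SCA1-Low-FAPs. The part of these cell types, of division or of the reads at several positions in the differences of *Gpx3*, *Nqo1* and the other antioxidant genes was not tested.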

How the data were processed

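RNA of 4 SCA1-High-FAPs and 4 SCA1-Low-FAPs samples was sequenced from QuantSeq 3′ libraries. The authors trimmed the reads, aligned them with STAR 2.6.0a to mm10 and counted them per gene of Ensembl release 93 with htseq-count, and the deposited values are these raw counts, with no normalisation. The strand setting of the counting is not given in the sources used here. The 5 summary entries per file were kept apart from the genes, and reads on no feature were 7.87% to 10.2% of the total over all entries. Of 31053 genes, 31011 were matched by identifier to GENCODE M21 (GRCm38).

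From the counts, genes were kept by filterByExpr (minimum 10 counts, 15 in total) and the cell states were compared with edgeR 4.0.16 (glmQLFit with robust estimation and glmQLFTest; R 4.3.3, limma 3.58.1) with TMM normalisation and Benjamini-Hochberg adjustment over 10181 genes. CPM values are TMM-normalised. Intervals of fold changes are 95% intervals on the total degrees of freedom of the test, the residual ones plus those gained by sharing information across genes. Intervals and the floor of 3 counts cover counting error and the spread between samples only, since PCR copies cannot be told apart. The tests were checked on simulated data, in which edgeR called 84 of 100 genes changed 4-fold and 45 of 100 changed 2-fold, with 11 false calls among 140.

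Alternatives were DESeq2 1.42.0 with and without a replicate block, RLE factors, no filter beyond 1 count, 10 counts in every sample, a replicate block in edgeR, each sample left out, an adjusted p of 0.01 and a fold change of 1.5. The genes named were the 10 members, every called gene of the wider lists, *Nfe2l2*, *Keap1*, *Bach1* and *Ly6a*, and markers whose values stand beside a result. *Ftl1*, *Cyba* and *Gsta4* were named after their values had been seen. The members and the lists were chosen with earlier results of these data known. Transcript ends were compared with all annotated transcripts of GENCODE M21 by blastn 2.17.0 (last 300 bases, at least 95% identity over 80 bases). pandas 2.3.3, matplotlib 3.10.9 and Python 3.11.15 served for tables and plots. Protein sequences were not used here, and 1 further marker list is not reported here.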

Additional observations from a re-analysis of the deposited data

Results flagged for a closer look

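In 5 of the 52 groups of 4 samples checked over 26 named genes, 1 sample lay farther from the other 3 than Dixon's 95% limit allows. Chance gives about 1 in 20 for independent checks, but these checks share the same 8 samples. All 5 values came from replicates 1 and 3 of SCA1-High-FAPs. Replicate 1 had the highest *Gpx1*, at 321 CPM against 289 to 295 CPM in the others, and the highest *Prdx1*, at 589 CPM against 481 to 499 CPM. The same replicate had the lowest *Abcc1*, at 66.9 CPM against 78.7 to 80.3 CPM. Replicate 3 had the highest *Gclm*, at 284 CPM against 208 to 214 CPM, and the highest *Gstt1*, at 145 CPM against 91.7 to 95.4 CPM. *Gstt1* was called with and without this replicate.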

How the results depend on the processing

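By edgeR, 2 members and 12 wider genes were called. DESeq2 called 4 members (*Sod2* and *Hmox1* besides). It also called more genes in all, 1065 of 12487 against 782 of 10181 by edgeR. An adjusted p of 0.01 left 1 member (*Nqo1*) and 3 wider genes, and no count over all genes was made at that threshold. Leaving out 1 sample gave 1 to 4 members and 3 to 16 wider genes. The 3 wider genes came without replicate 1 of SCA1-Low-FAPs and the 16 without replicate 3, where calls over all genes went from 782 to 417 and 1017. No log2 ratio of a member called in one fit changed sign in another, and 124 of 140 alternative values for the members kept the outcome of the call. These include values of *Gpx4*, which was never called and was positive in 3 of the 15 fits. Of the remaining values for the members, 8 lost and 8 gained the call, and 58 of 224 lost it among the other named genes. In fits that took the replicate number as a block (the replicate block), 3 members and 10 wider genes were called by edgeR and 3 and 11 by DESeq2. Over all genes these fits called 697 of 10181 by edgeR and 841 of 11872 by DESeq2. *Sod2*, *Gsta4* and *Ftl1* gained their calls (adjusted p = 0.0471, 0.0437 and 0.0357) and *Prdx6*, *Gclm*, *Txnrd1*, *Idh1* and *Ly6a* lost theirs by edgeR. Same-numbered samples did not deviate together (correlations of −0.0502 to 0.0067 across genes), and no sample correlated best with its own number, so the numbers were not taken as pairs. The best matches were reciprocal. Replicates 1, 2, 3 and 4 of SCA1-High-FAPs matched replicates 2, 1, 4 and 3 of SCA1-Low-FAPs. Whether samples share a mouse under other numbers was not tested, and no fit with such pairs was run. The causes of the changes in calls were not tested. Depth limits *Nqo1* and *Gpx4* most, with 11 to 199 and 39 to 141 counts per sample.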
